A study of Mus musculus with 10 samples.

Results

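The promoters and gene bodies of 49 mitosis and G2/M genes, listed by name among 21951 protein-coding genes, were examined in ATAC-seq peak lists of adult neural stem cell cultures. ATAC-seq reads open chromatin, since a transposase inserts adapters into accessible DNA. The cultures came from the subependymal zone (SEZ) of mice 10 weeks of age, either wild-type (WT) or lacking Cdkn1b, which encodes the cyclin-dependent kinase inhibitor p27 (p27KO). The Cdkn1b-null mice were kept on a C57BL/6J background per the study's methods, and whether cultures of several mice were pooled is not given in the sources used here. Proliferating cells (PRO) were neurospheres at 3 days in vitro (DIV) with EGF at 20 ng/ml and FGF at 10 ng/ml, as the labels and methods give it; a longer time is named in the study's results, and which holds is unknown here. DIFF cells (2 + 1 DIV), which begin to differentiate, had spent 2 days on Matrigel with FGF and then 24 h without mitogens in 2% serum. PRO and DIFF each had 3 libraries in WT and 2 in p27KO, every library from 50000 cells. The question was whether the promoters of the genes that run mitosis gained or lost accessibility from PRO to DIFF, and whether the absence of p27 altered this. Growth on Matrigel and serum came with DIFF only, so their effects cannot be told apart from that of mitogen withdrawal.

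Entry into mitosis is driven by the kinase Cdk1 bound to its cyclins, and exit from it by the anaphase-promoting complex, which marks the cyclins for destruction. The genes for these proteins, and for the kinetochore, spindle and condensin proteins they act on, are transcribed late in the cell cycle and shut off in resting cells. Many of their promoters carry a cell cycle genes homology region (CHR), a short element bound by the MuvB core: with p130 and E2F4 it forms the repressive DREAM complex of resting cells, and with Mybl2 and Foxm1 it activates the same genes in cycling cells. In the adult SEZ this programme separates dividing progenitors from quiescent stem cells and from neuroblasts that have left the cycle.

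The CHR was searched for in the promoters. RefSeq promoter windows of GRCm38.p6, from 250 bases before to 50 after a start, matched 39 of the 49 genes; Aurkb, Ccna2, Cdc25c, Foxm1, Incenp, Kif20a, Lmnb1, Smc4, Spc24 and Tpx2 had none. Letters were searched on both strands. The CHR was searched as TTTGAA, or with a changed middle as TTCGAA. The box of the factor NF-Y was CCAAT. An E2F site was TTCCCGC, with the variant TTGGCGC, the further variant TTCGCGC, and the last variant TTGCCGC. A forkhead site as Foxm1 binds was TGTTTA. Matches of different motifs were allowed to overlap. Below are the 150 bases before the start of 6 genes whose CHR lies before the start. Capitals mark any of these motifs. The genes shown are examples that hold some of the anchors of the set and some of the promoters with the largest changes. They are Cdk1 (chr10:69352913-69353062, minus strand), Cdc20 (chr4:118437344-118437493, minus strand), Kif11 (chr19:37376232-37376381, plus strand), Ube2c (chr2:164769779-164769928, plus strand), Top2a (chr11:99024190-99024339, minus strand) and Mki67 (chr7:135716380-135716529, minus strand), in that order and each read 5′ to 3′ on the strand of the gene.
Cdk1: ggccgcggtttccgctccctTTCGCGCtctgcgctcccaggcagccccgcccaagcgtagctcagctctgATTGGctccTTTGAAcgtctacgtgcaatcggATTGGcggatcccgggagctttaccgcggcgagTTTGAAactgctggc
Cdc20: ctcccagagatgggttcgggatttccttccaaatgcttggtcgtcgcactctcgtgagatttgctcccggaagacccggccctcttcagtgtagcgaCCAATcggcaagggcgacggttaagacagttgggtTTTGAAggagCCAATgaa
Kif11: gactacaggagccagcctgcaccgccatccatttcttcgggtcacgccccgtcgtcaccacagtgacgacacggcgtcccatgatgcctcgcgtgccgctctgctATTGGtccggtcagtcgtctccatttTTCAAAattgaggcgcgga
Ube2c: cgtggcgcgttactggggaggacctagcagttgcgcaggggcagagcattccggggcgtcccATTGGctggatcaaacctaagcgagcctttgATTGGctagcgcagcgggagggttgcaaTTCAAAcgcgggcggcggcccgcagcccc
Top2a: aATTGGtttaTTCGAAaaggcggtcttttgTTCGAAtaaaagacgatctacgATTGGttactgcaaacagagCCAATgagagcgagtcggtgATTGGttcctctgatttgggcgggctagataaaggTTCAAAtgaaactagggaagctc
Mki67: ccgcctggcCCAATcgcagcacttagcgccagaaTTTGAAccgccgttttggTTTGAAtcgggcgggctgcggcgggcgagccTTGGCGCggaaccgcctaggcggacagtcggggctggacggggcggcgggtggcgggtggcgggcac

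CHR letters were present in 28 of the 39 windows (71.8%), against 13.2% of the 11828 tested promoters with a window. CCAAT was also present in 28 (71.8% against 38.2%), and both occurred together in 25 (64.1% against 5.61%). E2F letters (23.1% against 16.6%) and the forkhead letters (12.8% against 8.04%) were closer to their background. In the printed windows the CHR stood at -71 to -66 and at -15 to -10 of Cdk1, at -18 to -13 of Cdc20, at -19 to -14 of Kif11 and at -29 to -24 of Ube2c, counted from the start. The ATAC summit of the region lay a median of 66 bp from the nearest CHR in the 28 genes that had it, compared with 173 bp over the 1562 promoters with a CHR. A match of letters is a description and does not show that a factor was bound.

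**Figure D1:**
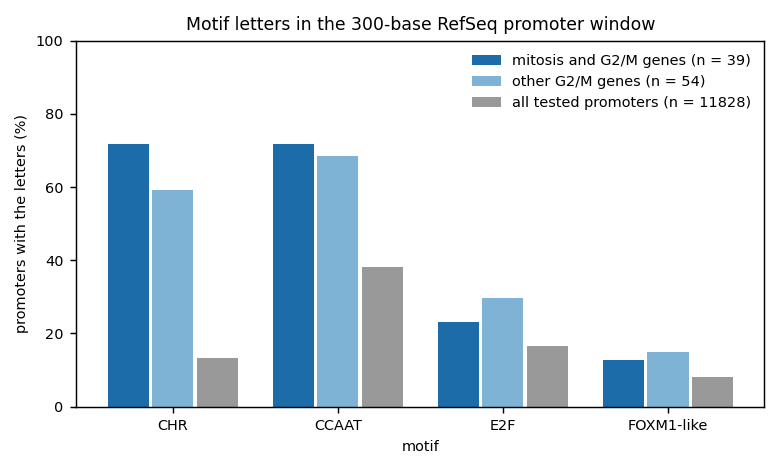
Share of promoters (y axis, percent) holding the letters of 4 motifs (x axis) in the RefSeq window, for the 39 mitosis and G2/M genes with a window, for 54 other G2/M genes and for all 11828 tested promoters with a window. CHR is present in 71.8% of the first, 59.3% of the second and 13.2% of the third.

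The lists held 57534 to 91801 peaks per library. The number of reads is not part of the lists, but the pileup at each summit, the number of overlapping fragments, could be solved from the fold enrichment and the p-value: at least 99.971% of the peaks of each list gave a whole number within 0.01. The lowest background pileup per list, which grows with depth, ran from 2.52 to 3.72. At the members' promoters the summit pileup was between 14 and 357 fragments, with medians of 70 to 122 per library. No peak overlapped Cdkn1b in the 4 p27KO libraries, while all 6 WT libraries had one. A promoter peak of Cdkn1b, with its summit near a start, was called in all 6 WT libraries, in both p27KO PRO libraries and in no p27KO DIFF library. The overlaps are in keeping with the titles of the p27KO libraries and not with their free-text description, which names WT. Promoters of the Y-linked genes Ddx3y, Eif2s3y, Uty and Kdm5d had a peak in all 6 WT libraries and in none of the 4 p27KO libraries, so sex and genotype cannot be told apart in any comparison between genotypes. All 8 markers of neural stem or progenitor cells had a promoter peak in every library, as did 4 of 4 of astrocytes, 3 of 5 of neuroblasts or neurons, 2 of 4 of oligodendrocytes, 1 of 3 of ependymal cells, 3 of 5 of microglia (Cx3cr1 and Ptprc had none in any), 0 of 4 of endothelial cells and 1 of 3 of pericytes.

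All 49 members had a promoter peak, a summit within 3 kb of a start, in all 10 libraries, before and after mitogen withdrawal and in both genotypes. Of the 21902 other protein-coding genes 63.3% did, and 23.9% had no promoter peak in any library. The members' promoters were also among the stronger ones. Each promoter was represented by the tested region nearest to a start, and the 15319 promoters were ranked within each library by fold enrichment, the ratio of the summit pileup to the local background, with percentile 100 for the strongest. The median over members of the mean percentile was 82.4, compared with 50.4 for the other promoters, and 42 of the 49 lay above 50. This held in each library, with median percentiles from 78.3 to 85.3 and 40 to 43 members above 50. The median width of the regions was 1132 bp, and 1090 bp over all promoters. In 9 members, Aurka, Cdc25b, Cdca8, Foxm1, Hmmr, Kif20a, Ncapd2, Nusap1 and Smc4, the region was also the promoter of another protein-coding gene, so their peak cannot be given to a single gene. This was 18.4% of the members and 21.9% of all promoters.

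**Figure D2:**
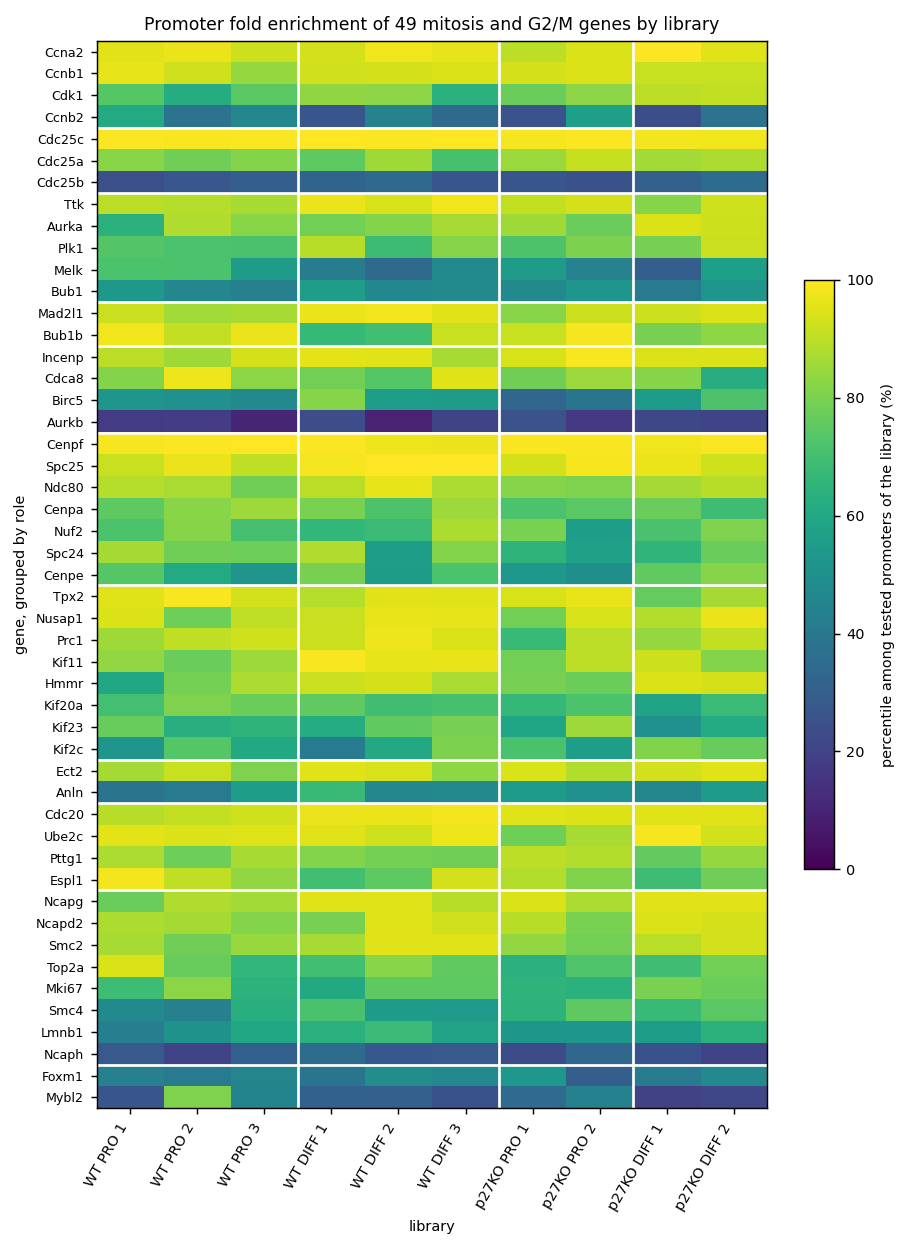
Percentile of the promoter fold enrichment (colour, percent of the 15319 tested promoters of the library) for each of the 49 genes (rows, grouped by role and ordered by mean within a role) in each of the 10 libraries (columns, by group). Most rows are bright in every column, from PRO to DIFF; Aurkb, Ncaph and Cdc25b are dark in every column.

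Promoter strength ranged widely from gene to gene. The 3 strongest promoters were Cdc25c, the phosphatase that activates Cdk1, at a mean percentile of 99.1 and never under 97.9; Cenpf, a large protein of the outer kinetochore, at 98.8 and never under 97.0; and Spc25, a subunit of the Ndc80 complex that grips microtubules, at 96.0 and never under 90.5. The 3 weakest were Aurkb, the kinase of the chromosomal passenger complex, at 18.4, Ncaph, a condensin subunit, at 27.3, and the phosphatase Cdc25b at 29.3. In Aurkb the highest of the 10 libraries reached only 25.4, and its lowest summit pileup was 14 fragments, in WT DIFF replicate 2. Strong and weak promoters thus stood side by side within a complex: Incenp, the partner of Aurkb, had a mean of 92.9, and Ncapg and Ncapd2, partners of Ncaph, had 90.4 and 88.1.

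By role, the 4 genes of anaphase promotion and sister separation had mean percentiles from 82.7 (Espl1, separase) to 94.5 (Cdc20, the activator of the anaphase-promoting complex). The 2 spindle checkpoint adaptors had 86.7 (Bub1b) and 91.7 (Mad2l1). The 8 spindle motors and microtubule binders ranged from 65.3 (Kif2c) to 92.0 (Tpx2, which activates Aurka on the spindle). The 7 kinetochore and centromere genes ranged from 65.3 (Cenpe, a kinetochore motor) to 98.8, and the 5 mitotic kinases from 48.7 (Bub1) to 91.3 (Ttk, which starts the spindle checkpoint). Among Cdk1 and its cyclins, Ccna2 had 95.1, Ccnb1 92.6 and Cdk1 78.1, while Ccnb2 had 39.5. The 8 genes of condensin and chromosome structure spread from 27.3 to 90.4. Of the 2 transcription factors of the set, Foxm1 had 43.9. For Mybl2 the value depended on the start: the region nearest to any annotated start, which stands for the gene in the counts, lies at an internal start 20279 bp from the outer 5′ end and had 35.9, while the region at the outer 5′ end (chr2:163054095-163055282) had 95.7.

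All these promoters kept a called peak from WT PRO to WT DIFF. By the region that stands for each gene, no member passed the test in either direction. Further regions near a start of Ect2, Smc4 and Ncapd2 that did pass over all regions are given under the other observations. The 70627 regions found in 5 or more libraries were ranked in each, and the ranks were turned into normal scores and compared with limma, with Benjamini-Hochberg adjustment over the 15319 promoters at 0.05. A change is the difference of mean normal scores, DIFF minus PRO. It is a shift in rank and not a log2 fold. Ranks within a library cannot show a gain or loss of accessibility shared by all regions, so none was tested. Of all promoters, 0.607% were called higher and 0.529% lower; of the members 0 of 49 were called, with 9 (18.4%) at an unadjusted p under 0.05, against 15.4% of all promoters. The members' changes ran from -0.60 to 0.92. Their median was 0.21, with 39 above 0 and 10 below, beside a median of 0.12 over all promoters, with 66.4% above 0, so a shift was shared by promoters at large. Relative to that median 33 members lay above and 16 below. Ranked by summit pileup in place of fold enrichment, the members' median was 0.03 and that of all promoters 0.04, so the members' excess was lost. The 95% interval of a single member's change extended 0.35 to 0.60 to each side, so changes smaller than this could not be told from 0. In bulk libraries, a change in the share of cells with an open promoter and a change in every cell cannot be told apart.

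**Figure D3:**
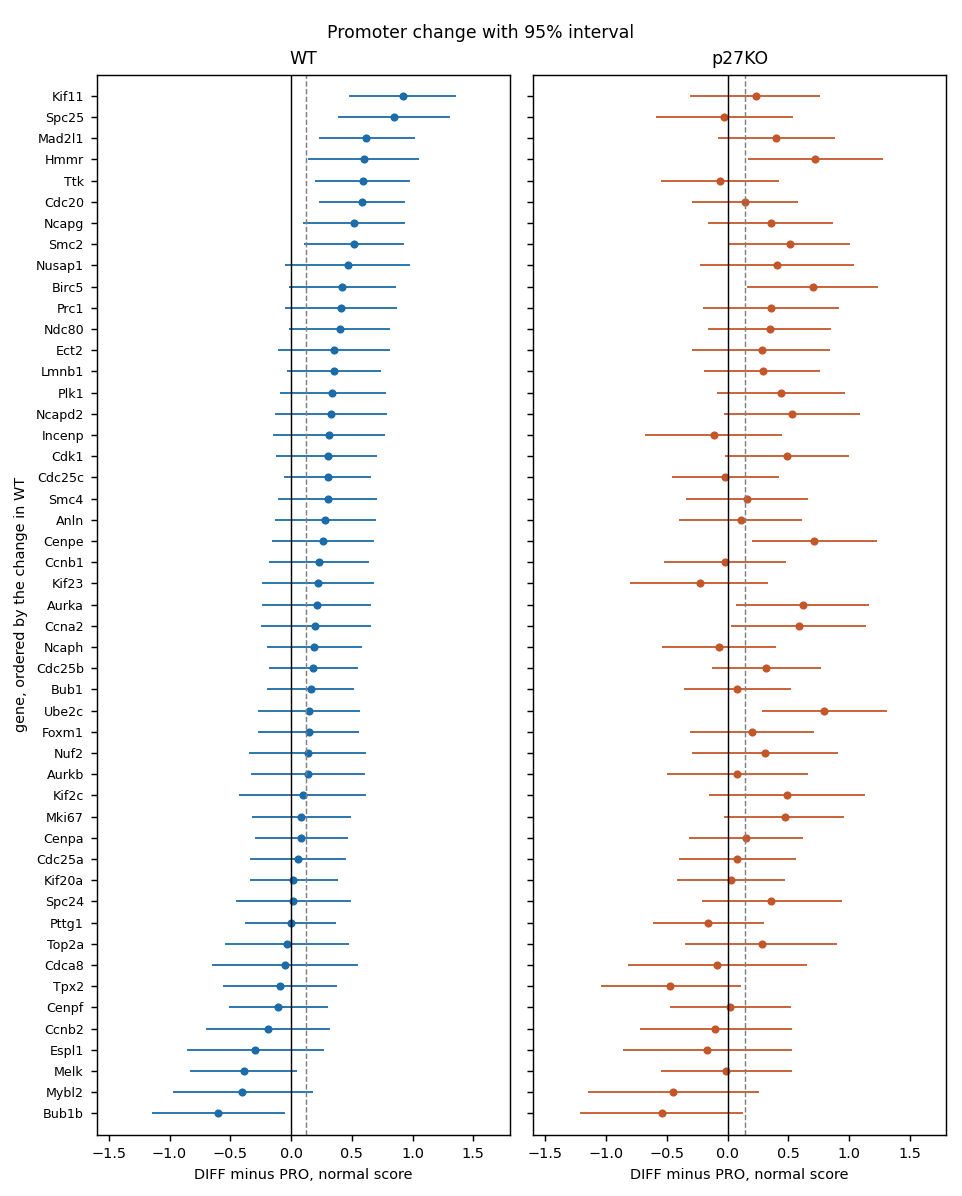
Change of promoter accessibility (x axis, DIFF minus PRO, difference of normal scores) with its 95% interval from limma for each of the 49 genes (y axis, ordered by the change in WT), in WT on the left and p27KO on the right. The dashed line is the median of all tested promoters (0.12 in WT, 0.14 in p27KO). None passed the test after adjustment over all promoters.

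The 3 largest positive changes in WT were at Kif11, Spc25 and Mad2l1. The Kif11 promoter (chr19:37375527-37376771), of the motor that pushes the spindle poles apart, had percentiles of 83.7, 77.1 and 85.3 in WT PRO and 99.2, 96.1 and 96.6 in WT DIFF. The groups did not overlap, and the change was 0.92 ± 0.20 (SE), with an interval from 0.48 to 1.36 and an adjusted p of 0.0559 by limma. Spc25 (chr2:69205637-69206719) had 91.7, 97.2 and 90.5 in WT PRO and 98.8, 99.8 and 99.8 in WT DIFF. All DIFF libraries were above all PRO libraries, with a change of 0.85 ± 0.21 and an adjusted p of 0.0918. Mad2l1 (chr6:66534912-66535855), the checkpoint protein that restrains Cdc20, had 91.9, 86.2 and 86.8 against 97.0, 97.9 and 95.5, again without overlap (0.62 ± 0.18, adjusted p = 0.147). Cdc20 itself (chr4:118436825-118438192) had 89.3, 91.0 and 92.6 against 97.2, 97.0 and 98.1, also without overlap (0.58 ± 0.16, adjusted p = 0.129). When ranks were taken among promoter regions only, Kif11 (1.00, adjusted p = 0.0299), Spc25 (1.10, 0.0387) and Cdc20 (0.59, 0.0496) passed the threshold; by summit pileup their changes were 0.54, 0.23 and 0.24 and none passed (adjusted p of 0.129, 0.44 and 0.313).

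The 3 largest negative changes in WT were at Bub1b, Mybl2 and Melk, and none passed the test. Bub1b (chr2:118597736-118598551), which encodes the checkpoint protein BubR1, had percentiles of 97.9, 90.7 and 97.0 in WT PRO and 67.0, 69.9 and 91.5 in WT DIFF. The highest DIFF library lay above the lowest PRO library, so the groups overlapped (-0.60 ± 0.25, adjusted p = 0.284). The region at the internal start of Mybl2 (chr2:163074966-163075751), the B-Myb factor that works with the MuvB core, had 26.9, 80.7 and 45.0 in WT PRO and 30.9, 30.8 and 25.0 in WT DIFF. WT PRO replicate 2 stood far above the other 2, and the change was -0.40 ± 0.26 (adjusted p = 0.473). At the outer 5′ end of Mybl2 the percentiles were 98.9, 98.5 and 94.4 against 83.0, 95.2 and 97.2, which overlapped (-0.23 ± 0.22, adjusted p = 0.516 over all regions). Melk (chr4:44300782-44301183), a kinase of cycling progenitors, had 71.6, 71.5 and 55.4 against 42.0, 34.7 and 47.7. It was the only member whose WT DIFF libraries were all below its WT PRO libraries (-0.39 ± 0.20, adjusted p = 0.375). By summit pileup the changes were smaller, at -0.19 for Bub1b, -0.20 for the internal start of Mybl2 and -0.08 for Melk.

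The genes most used as marks of dividing cells did not pass the test in WT, and their intervals spanned 0. Mki67 (chr7:135715657-135716933), which encodes the Ki67 antigen, had percentiles of 68.8, 82.5 and 64.7 in WT PRO and 60.9, 75.0 and 75.2 in WT DIFF. The groups overlapped, and the change was 0.08 with an interval from -0.32 to 0.49. Top2a (chr11:99023720-99024777), the topoisomerase that untangles chromosomes, had 94.3, 76.9 and 66.4 against 69.8, 82.1 and 75.4, with a change of -0.03 (-0.54 to 0.48). Cdk1 (chr10:69352003-69353296) had 73.8, 61.8 and 74.3 against 83.4, 82.7 and 64.0 (0.30, -0.12 to 0.71). The DIFF libraries of these 3 genes lay within or above the range of the PRO libraries, except 1 of Mki67.

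Of the other central genes, none passed the test in WT, and their percentiles among promoters overlapped between PRO and DIFF for each of them; Plk1 and Bub1 did not overlap on the normal score over all regions. Ccnb1 (chr13:100785935-100787096), the main mitotic cyclin, had percentiles of 96.2, 92.7 and 84.0 in WT PRO and 92.6, 93.6 and 94.9 in WT DIFF (0.23 ± 0.19). Plk1 (chr7:122158727-122160106), the polo kinase, had 73.4, 71.7 and 71.3 against 89.2, 68.4 and 81.9 (0.34 ± 0.20). Bub1 (chr2:127831512-127832210), the kinase that builds the checkpoint on kinetochores, had 53.4, 46.3 and 43.7 against 55.6, 46.6 and 47.7 (0.16 ± 0.16).
Cenpf (chr1:189687776-189688606) stayed at 98.7 to 99.7 in WT PRO and 97.0 to 99.5 in WT DIFF (-0.11 ± 0.18), and Aurkb (chr11:69045543-69046197) at 10.3 to 18.2 and 9.8 to 23.8 (0.14 ± 0.21). Ncapd2 (chr6:125191348-125192810) had 87.7, 86.6 and 81.4 against 79.5, 95.3 and 92.8 (0.33 ± 0.21), and Foxm1 (chr6:128362141-128363600) 43.5, 41.5 and 45.4 against 39.0, 49.3 and 47.8 (0.15 ± 0.19). The adjusted p of these 7 genes was 0.414 or higher.

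Counted over the members without a test, all 3 WT DIFF libraries lay above all 3 WT PRO libraries on the normal score scale in 15 (30.6%) and below in 1 (2.04%). Over all promoters the shares were 20.4% and 7.29%. By summit pileup the counts were 11 (22.4%, against 18.1% of all promoters) and 3 (6.12%, against 11.9%). By role, the median change in WT was 0.31 over the spindle motors and microtubule binders, with 7 of 8 above 0, and 0.32 over condensin and chromosome structure, with 7 of 8 above 0. It was 0.14 over the kinetochore and centromere genes (6 of 7 above 0) and 0.08 over anaphase promotion (2 of 4). None of these medians was tested, and they use fold enrichment only. By summit pileup the median over all members was 0.03, and the roles were not compared on it.

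In p27KO cultures the members kept their promoter peaks, and 0 of 49 passed the test, beside 0.3% of all promoters called higher and 0.261% lower, with 7 members (14.3%) at an unadjusted p under 0.05 against 10.3% of all promoters. The median change was 0.20, with 34 above 0 and 15 below, and 0.14 over all promoters; by summit pileup it was 0.10 and 0.07. Both p27KO DIFF libraries lay above both p27KO PRO libraries in 22 members (44.9%), against 38.7% of all promoters, and below in 4 (8.16%), against 12.8%. By summit pileup these were 18 (36.7%, against 35.3%) and 3 (6.12%, against 16.5%). The largest positive change was at Ube2c (chr2:164769327-164770160), the ubiquitin-conjugating enzyme of the anaphase-promoting complex, from percentiles of 77.9 and 86.9 in p27KO PRO to 98.6 and 93.1 in p27KO DIFF. The groups did not overlap, and the change was 0.79 ± 0.23 (adjusted p = 0.249). Hmmr (chr11:40733071-40734568), a spindle protein that shares its promoter with Nudcd2, went from 79.3 and 77.7 to 94.7 and 93.5 (0.72 ± 0.25, adjusted p = 0.357), and Cenpe (chr3:135211826-135213313) from 53.2 and 49.7 to 75.4 and 81.7 (0.71 ± 0.23, adjusted p = 0.324). The largest negative changes were at Bub1b, from 91.6 and 98.8 to 79.6 and 83.2 (-0.54 ± 0.30), at Tpx2 (chr2:152847559-152848423), from 94.1 and 96.7 to 76.5 and 86.5 (-0.47 ± 0.26), and at the internal start of Mybl2, from 34.9 and 43.9 to 19.4 and 21.4 (-0.45 ± 0.32). These 3 genes had adjusted p of 0.538 to 0.62, and in each the DIFF libraries lay below the PRO libraries. At the outer 5′ end of Mybl2 the p27KO percentiles were 95.2 and 96.4 in PRO and 99.2 and 99.0 in DIFF, a change of the opposite sign (0.56 ± 0.27, adjusted p = 0.224 over all regions). By summit pileup the p27KO changes were 0.27 for Ube2c, 0.29 for Hmmr, 0.41 for Cenpe, -0.21 for Bub1b, -0.13 for Tpx2 and -0.30 for the internal start of Mybl2.

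The sign of the change was the same in both genotypes for 40 of the 49 members (81.6%), 32 above 0 and 8 below, compared with 73.8% of all promoters. The comparisons rest on separate libraries. Of the anchors in p27KO, Mki67 had 65.1 and 63.8 in PRO and 80.0 and 77.7 in DIFF (0.47, interval -0.03 to 0.96), and Cdk1 77.1 and 82.7 against 90.2 and 90.8 (0.49, -0.02 to 1.00). In both genes the p27KO DIFF libraries stood above the p27KO PRO libraries, as in 38.7% of all promoters. By summit pileup the p27KO changes were 0.07 for Mki67 and 0.27 for Cdk1. Plk1 changed by 0.44 ± 0.24, Ncapd2 by 0.53 ± 0.26, Top2a by 0.28 ± 0.28, Foxm1 by 0.20 ± 0.23, Cdc20 by 0.14 ± 0.20, Bub1 by 0.08 ± 0.20, Aurkb by 0.08 ± 0.26, Cenpf by 0.02 ± 0.23 and Ccnb1 by -0.02 ± 0.23.

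The difference between genotypes was tested itself, as the interaction, and called 0 of 49 members and 0.0% of all promoters by limma; 3 members (6.12%) had an unadjusted p under 0.05, against 1.81% of all promoters. Ranked by summit pileup or by -log10 p-value this count was 0, and with the replicate block it was 1. It was 4 with the strongest region per gene and 6 with ranks among promoter regions only. The shares of all promoters in these alternatives were not counted. The 3 were Spc25 (-0.87, unadjusted p = 0.0231), Kif11 (-0.69, unadjusted p = 0.0493) and Ttk (-0.66, unadjusted p = 0.0405), whose change was smaller in p27KO than in WT, each with an adjusted p of 1.0. Kif11 had 78.8 and 90.1 in p27KO PRO and 92.5 and 81.3 in p27KO DIFF, so its groups overlapped there, with a change of 0.23 ± 0.24. Spc25 had 93.7 and 98.8 against 97.1 and 92.9, also overlapping (-0.03 ± 0.26). At DIFF the difference p27KO minus WT had an unadjusted p under 0.05 at the same 3 genes, at -0.61 (Spc25, unadjusted p = 0.0242), -0.60 (Kif11, unadjusted p = 0.0206) and -0.47 (Ttk, unadjusted p = 0.0378), and these contrasts share their DIFF libraries with the interaction. The 3 were 6.12% of the members, against 2.62% of all promoters. This count was 1 by summit pileup or -log10 p-value and 7 with ranks among promoter regions only. p27KO against WT called 0 of 49 members at PRO, with 1 (2.04%, against 2.8% of all promoters) at an unadjusted p under 0.05 (Ube2c, -0.56, unadjusted p = 0.0244), and 0 of 49 at DIFF, with 3; of all promoters 0.0261% were called at PRO and 0.0261% at DIFF, either direction. The members' median difference was -0.02 at PRO and -0.03 at DIFF.

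Of 64 other G2/M genes, a list of further spindle, kinetochore, cytokinesis and checkpoint genes, 63 had a promoter peak in all 10 libraries and the median of the mean percentile was 74.0. In WT, 0 were called higher and 1 lower, beside 0.607% and 0.529% of all promoters. In p27KO, 0 were called in either direction, beside 0.3% higher and 0.261% lower. The called gene was Dlgap5, a spindle protein, which had percentiles of 76.4, 56.6 and 60.4 in WT PRO and 26.2, 21.7 and 20.8 in WT DIFF. Its groups did not overlap, and the change was -0.88 ± 0.18 (adjusted p = 0.0481); in p27KO it went from 57.5 and 67.7 to 16.2 and 23.9 (-0.94 ± 0.22, adjusted p = 0.129). The list's median change was 0.23 in WT and 0.29 in p27KO, beside 0.12 and 0.14 over all promoters. These values use fold enrichment only, and changes by summit pileup were not taken for this list.

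Members with and without CHR letters were set side by side. The 28 with a CHR had a median change of 0.25 in WT and 0.28 in p27KO; for the 11 without it was 0.19 and 0.08; over all promoters the medians were 0.13 and 0.13 with a CHR, and 0.12 and 0.14 without. The median of the mean percentile was 83.8 with a CHR and 73.3 without. These are descriptions with no test, and they use fold enrichment only. By summit pileup the median change of all members in WT was 0.03, and the split by CHR was not made on it.

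Outside the promoters, peaks in the members' gene bodies, over 3 kb from every start of the gene, were few. They formed 29 regions in 16 genes over all libraries, and 15 regions in 12 genes reached the 5 libraries needed for a test, 11 in introns and 4 in exons. A tested gene-body region was present in 24.5% of the members and 32.3% of protein-coding genes. After adjustment over all 70627 regions, 3 of the 15 were higher in WT DIFF and 1 was lower, beside 12% and 12.5% of the 23301 tested gene-body regions. In p27KO 3 were higher and 0 lower, beside 8.0% and 8.3%. A region with peaks in only the DIFF libraries passes the filter through them and had to differ. These counts therefore carry no weight for the set. Of the 5 regions with a peak in all 10 libraries, 2 were called in WT and 0 in p27KO. Among all gene-body regions under that filter, 18.7% were called in WT and 10.1% in p27KO.

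The largest change was in an intron of Smc2, the ATPase subunit shared by both condensins, 14005 bp from the nearest start (chr4:52453028-52453620). No PRO library of either genotype had a peak there and all 5 DIFF libraries did, with percentiles among all regions of 72.1, 63.3 and 73.4 in WT DIFF and 58.1 and 45.3 in p27KO DIFF and summit pileups of 19 to 43 fragments. The change was 2.17 in WT (adjusted p = 7.15e-05) and 1.85 in p27KO (adjusted p = 0.00065). The region entered the test only through its DIFF peaks and so had to differ, and these values describe it without supporting it. Peaks in all 5 DIFF and in no PRO library occurred in 1.89% of the 23301 gene-body regions. The change of the Smc2 promoter was 0.52 ± 0.19 in WT and 0.51 ± 0.23 in p27KO, with adjusted p of 0.227 and 0.481. Below are the 200 bases around the summit of the intronic region (chr4:52453174-52453373, GRCm38.p6, plus strand), shown because it is the member region with the largest change in WT. Capitals mark CAGNTG, an E-box of the kind bound by neurogenic bHLH factors, at 3 places, and GGAATG, a TEAD site, which overlaps a reverse TTGGCA, an NFI half-site; TGANTCA and ACAAAG were also searched on both strands and were not in the window.
Smc2 intron: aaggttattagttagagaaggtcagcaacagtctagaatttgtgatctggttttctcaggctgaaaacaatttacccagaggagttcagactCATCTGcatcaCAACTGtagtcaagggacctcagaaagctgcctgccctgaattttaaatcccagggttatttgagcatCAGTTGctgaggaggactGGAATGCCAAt
E-box letters were present in 52.6% of the 23301 windows of this length, NFI letters in 22.2% and TEAD letters in 16.3%.

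In an intron of Kif11 (chr19:37418422-37418585, 16293 bp from a start), 2 of 3 WT DIFF, both p27KO DIFF, no WT PRO and 1 of 2 p27KO PRO libraries had a peak, with pileups of 14 to 28 fragments. The change was 1.30 in WT (adjusted p = 0.00881) and 1.21 in p27KO (adjusted p = 0.0455). It too reached the 5 libraries mainly through DIFF, so its call is a description. Anln, the cytokinesis scaffold anillin, had a region in an exon of a non-coding transcript (chr9:22367806-22368496) with a peak in every library, at percentiles of 79.6, 92.7 and 76.2 in WT PRO and 98.0, 93.3 and 98.4 in WT DIFF. All WT DIFF libraries lay above the WT PRO libraries (0.90, adjusted p = 0.0326), and in p27KO the change was of the same size (0.90) with an adjusted p of 0.0957; the WT call held in 6 of 10 cases with 1 library left out. The fall was in a UTR exon of Foxm1 (chr6:128374992-128375733), which lies within 3 kb of the starts of Tex52 and Gm44596. Its percentiles were 98.3, 94.3 and 94.1 in WT PRO and 84.0, 85.8 and 84.2 in WT DIFF, without overlap (-0.73, adjusted p = 0.0216), and in p27KO 94.5 and 93.4 against 87.9 and 83.6 (-0.48, adjusted p = 0.235). The WT call held in 8 of 10 cases with 1 library left out.

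The third region called in p27KO was in an intron of Lmnb1, which encodes lamin B1 (chr18:56752083-56752230). Neither p27KO PRO library and both p27KO DIFF libraries had a peak, at percentiles of 53.0 and 58.2 (1.94, adjusted p = 0.00973), while in WT 1 of 3 PRO and 2 of 3 DIFF libraries had one (0.51, adjusted p = 0.318). This region also had a peak in only 5 libraries, 4 of them DIFF, so its call is a description. The interaction at this region did not pass the test (1.43, unadjusted p = 0.0182). Over the 15 regions, the interaction and both comparisons of p27KO with WT called 0 by limma. Among the 23301 gene-body regions the shares called were 0.0% for the interaction, 0.0257% at PRO and 0.00429% at DIFF.

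**Figure D4:**
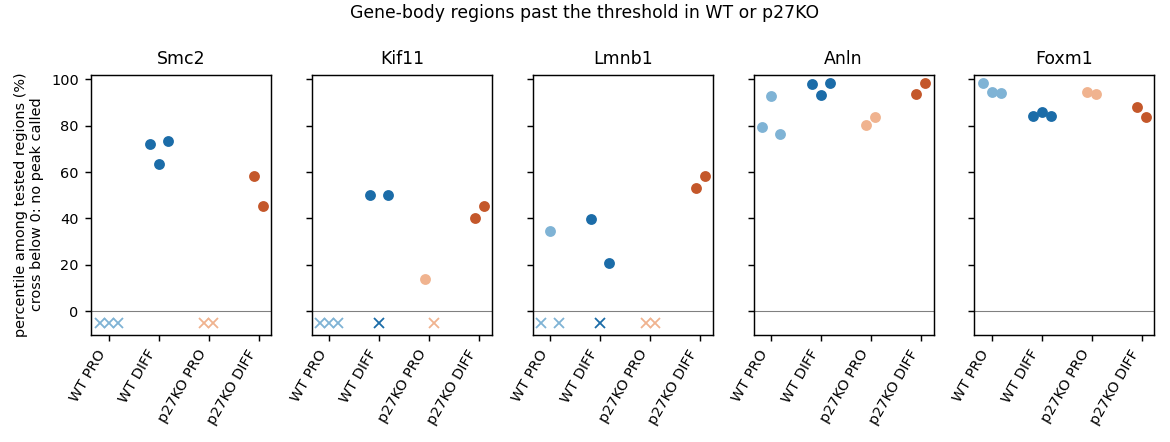
Percentile of fold enrichment among the 70627 tested regions (y axis, percent) in each library, by group (x axis), for the 5 gene-body regions past the threshold in WT or p27KO; a cross below 0 is a library in which no peak was called. The Smc2 region has a peak in all 5 DIFF and in no PRO libraries, while the Anln and Foxm1 regions have a peak in every library.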

How the data were processed

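ATAC-seq peak lists of 10 libraries were analysed. The authors clipped reads with Cutadapt, trimmed with Trimmomatic, aligned to GRCm38 by Bowtie2 and marked duplicates by Picard; MACS2 then gave 1 narrow peak list per library, with no fragment model and an FDR of 0.05; versions are not given in the sources used here. The deposited fold enrichment is a ratio of summit pileup to local background, and the deposited -log10 p-value and -log10 q-value are those of MACS2. Here, overlapping peaks were merged, and the 70627 regions found in 5 or more libraries were ranked within each library by their highest fold enrichment, with absent peaks tied at the bottom. Normal scores of the ranks were compared in limma 3.58.1 (R 4.3.3), with 1 mean per group over all 10 libraries. The alignments the authors tested with DiffBind were not used here. Starts came from GENCODE M21, whereas the authors used another release. Gene names in the text were all members past the threshold, the 3 highest and lowest by mean percentile, the 3 largest changes of each sign per genotype, central genes chosen by name, and gene-body regions past the threshold. Roles give further examples chosen after their values were seen. The members and lists were chosen with earlier results of these data known. Whether replicates came from separate cultures or mice is not given in the sources used here, so p-values measure the spread between these libraries, which may be technical. Fits were tested on simulated data.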

Additional observations from a re-analysis of the deposited data

How the results depend on the processing

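All 49 members had a promoter peak in every library in each alternative tried. The promoter count stayed at 0 in p27KO, for the interaction and for p27KO against WT in every alternative run, and with any library left out (0 to 0). In WT it was 1 with the top 57000 peaks of each list, 3 with ranks among promoters only and 1 with the strongest region per gene. The shares of all promoters called in these settings were 1.78%, 2.35% and 1.83%, beside 1.14% in the main fit. The cause was not tested. The median change in WT was 0.07 ranked by -log10 p-value, 0.12 among promoters only and 0.03 by summit pileup (all promoters 0.05, 0.04 and 0.04), and 0.19 to 0.23 with 1 library left out. In p27KO it was 0.13, 0.10 and 0.10 (all promoters 0.08, 0.05 and 0.07), and 0.17 to 0.25. Gene-body calls in p27KO were 1 of 10 tested with the top 57000 peaks, beside 20.2% of all gene-body regions. With peaks required in all 10 libraries, 18.7% of all gene-body regions were called in WT and 10.1% in p27KO. The members' calls were 2 in WT and 0 in p27KO, of the 5 regions that such a filter leaves. With 1 library left out they were 0 to 5 in WT and 0 to 2 in p27KO where the filter was applied again. The count was 0 in both genotypes without WT DIFF replicate 1 or without WT DIFF replicate 3, and 0 in p27KO without either p27KO DIFF library. Of all gene-body regions, 15.8% in WT and 12.7% in p27KO were called without WT DIFF replicate 1. Without WT DIFF replicate 3 these shares were 19.3% and 14.6%, and without p27KO DIFF replicate 1 the p27KO share was 5.87%. Without any one of the DIFF libraries the Smc2 region has a peak in 4 libraries and is not tested under that filter. With the tested regions kept they were 2 to 5 in WT, with 2 without WT PRO replicate 1 or WT DIFF replicate 1, and 1 to 3 in p27KO, with 1 without p27KO PRO replicate 1 or p27KO DIFF replicate 2.

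The replicate block left the promoter counts at 0 and the gene-body counts at 4 in WT and 3 in p27KO, beside 23.7% and 15.6% of all gene-body regions. Over 13 pairs with the same number, r of the deviations ran from -0.141 to 0.065. In WT, PRO and DIFF libraries with the same number had r of 0.057, 0.065 and 0.033. Those with different numbers had r from -0.051 to -0.005. Whether the numbers pair the libraries cannot be decided from these values. With the p27KO numbers crossed, the counts were 0 for promoters, and 3 in WT and 3 in p27KO for gene bodies. Of all gene-body regions 24.4% and 16.1% were then called. Ranking by summit pileup, the crossed numbers and keeping the tested regions were chosen after seeing the data. A fit on only the groups compared could not be made for the interaction, which uses all 4 groups. Peak lists hold only called peaks, so a region with no peak has no value, and weak regions such as the Kif11 intron rest on 14 to 28 fragments.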

Other observations

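The 5 genes of the MuvB core, the subunits common to the repressive and the activating complexes on these promoters, had a promoter peak in all 10 libraries. Their median of the mean percentile was 50.4, beside 50.5 over all promoters. Their median change was 0.24 in WT and 0.30 in p27KO, beside 0.12 and 0.14 over all promoters. In both genotypes 5 of 5 lay above 0, as did 66.4% of all promoters in WT and 68.2% in p27KO. By limma 0 were called, beside 1.14% and 0.561% of all promoters. At an unadjusted p under 0.05 there were 0 in WT and 1 in p27KO, against 15.4% and 10.3% of all promoters.

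Some gene-body regions were seen in too few libraries to be tested. An intronic region of Lmnb1 (chr18:56742618-56742811) had a peak in 1 WT DIFF and both p27KO DIFF libraries and in no PRO library, with summit pileups of 12 to 15 fragments. Others had peaks in PRO only. A coding exon of Anln (chr9:22376180-22376399) had them in 2 WT PRO and 1 p27KO PRO libraries, with 13 to 17 fragments. An intron of Hmmr (chr11:40715657-40715794) had them in 1 WT PRO and both p27KO PRO libraries, with 14 to 20 fragments.

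Among the 7 members with more than 1 region near an annotated start, Mybl2 was the only one represented by a region away from its outer 5′ end. Of all tested promoters 32.8% had more than 1 region. A region at an internal start of Ect2 (chr3:27122928-27123467) lies 30411 bp from the outer 5′ end. It had a peak in all 5 DIFF libraries and in no PRO library, with percentiles among promoters of 24.0 to 42.5. Its change in WT was 2.12 (adjusted p = 9.11e-05 over all regions by limma). This region entered the test only through its DIFF peaks and so had to differ. A region of Smc4 (chr3:69020406-69020737) went the other way, with a peak in all 3 WT PRO and no WT DIFF libraries (-0.97, adjusted p = 0.027). At Ncapd2 (chr6:125182274-125182841) 1 of 3 WT PRO and all 3 WT DIFF libraries had a peak (1.23, adjusted p = 0.0178). Both reached the 5 libraries mainly through 1 condition, so their calls are descriptions. All were picked out after their values were seen, and the share of such regions called was not counted.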
